A study of Mus musculus with 9 samples.

Results

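The genes described here are the receptors of the colony-stimulating factor (CSF) family and the ligands that keep microglia alive: Csf1, Il34, Csf1r, Csf2ra, Csf2rb, Csf2rb2 and Csf3r. They were taken by symbol as 7 of 22180 genes with a single symbol on the array, and each had 1 probe set. Microglia, the resident macrophages of the brain, were sorted by FACS from perfused brains of female C57Bl/6 mice 24 to 28 weeks old. FAD DKO mice (FAD Hdac1/2fl/fl Cx3cr1CreERT2) carried a familial Alzheimer's disease transgene set, floxed Hdac1 and Hdac2 alleles, and an inducible Cre recombinase at the fractalkine receptor locus Cx3cr1. FAD mice (FAD Hdac1/2fl/fl) carried the transgenes and the floxed alleles without the Cre, and wild type mice carried none of these. All animals of the 3 groups were injected with 8 mg tamoxifen when 6 weeks old, and each group had 3 arrays. FAD differs from wild type in the floxed alleles as well as in the transgenes. FAD DKO differs from FAD in the Cre at the Cx3cr1 locus as well as in the deletion it induces. Cx3cr1CreERT2 is active in other macrophages that express Cx3cr1. Whether the arrays of 1 group hold different animals is not stated in the labels. The p-values therefore reflect only how far these samples spread, which may be technical.

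CSF1R is the receptor tyrosine kinase on which microglia depend for survival and proliferation. It has a pair of ligands of unrelated sequence: CSF1, made in the brain by glia including microglia, and IL-34, made mainly by neurons. GM-CSF acts through a specific alpha chain, CSF2RA, joined to a beta common chain, CSF2RB, which the receptors for IL-3 and IL-5 also use. Mice have a further beta chain, CSF2RB2, which serves IL-3. CSF3R is the receptor for G-CSF, best known from neutrophils and also present in microglia. The expression of Csf1 by microglia near amyloid plaques is a known feature of Alzheimer's disease models.

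Among the 7 genes, Csf1 was the one whose level set wild type apart from both FAD genotypes by more than the spread within groups. Its mean was 2.41-fold that of wild type in FAD and 2.44-fold in FAD DKO. FAD DKO and FAD were at nearly the same mean. Csf1r, the receptor for this ligand, stayed within 0.12 on the log2 scale over all 9 arrays. In limma, 0 of the 7 genes passed an adjusted p under 0.05 in any comparison, where 0.0406% of all genes passed for FAD against wild type, 0.0225% for FAD DKO against FAD and 0.14% for FAD DKO against wild type. The differences of the other 6 genes lay between -0.20 and 0.13 (log2).

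The array signals are log2 values after RMA, and the median of all probe sets was 5.35. Levels of different genes are not compared here, since probes differ in brightness. The defining markers of microglia were present on all arrays: 11 of 12 listed markers were measured, all 11 averaged above that median, and P2ry12, a purinergic receptor typical of microglia, averaged 11.91 in FAD DKO, 12.03 in FAD and 12.09 in wild type. The targeted gene Hdac1 stood at 7.63, 7.41 and 7.64 in FAD DKO, 8.03, 8.14 and 8.19 in FAD, and 8.07, 8.65 and 8.60 in wild type. Hdac2 stood at 7.89, 7.61 and 7.90 in FAD DKO, 8.56, 8.52 and 8.36 in FAD, and 8.28, 8.39 and 8.22 in wild type. Both were lowest on the FAD DKO arrays, though the probes may lie outside the deleted parts. Neither passed the adjusted test against FAD (limma, Hdac1 -0.56, adjusted p = 0.376, and Hdac2 -0.68, adjusted p = 0.159). Cx3cr1, which carries the Cre in FAD DKO, averaged 11.88 in FAD DKO, 12.12 in FAD and 12.20 in wild type. Its FAD DKO arrays lay below all others (FAD DKO minus FAD -0.25, limma adjusted p = 0.383). The part of the Cre itself in FAD DKO minus FAD cannot be told apart from that of the deletion.

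The 250 bases before the start of Csf1, the ligand gene whose wild type arrays stood apart, and of Csf3r, a receptor gene whose groups overlapped, are shown as their RefSeq promoters (GRCm38.p6, 5′ to 3′ on the gene's strand). The Csf1 stretch is chr3:107760470-107760719 on the minus strand, and the Csf3r stretch is chr4:126024409-126024658 on the plus strand. Capitals mark matches on either strand to 5 motifs that were searched.
Csf1: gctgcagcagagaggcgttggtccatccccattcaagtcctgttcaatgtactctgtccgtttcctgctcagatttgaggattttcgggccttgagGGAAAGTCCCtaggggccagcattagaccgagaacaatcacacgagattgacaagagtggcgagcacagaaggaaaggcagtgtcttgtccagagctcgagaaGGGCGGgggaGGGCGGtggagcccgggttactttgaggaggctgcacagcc
Csf3r: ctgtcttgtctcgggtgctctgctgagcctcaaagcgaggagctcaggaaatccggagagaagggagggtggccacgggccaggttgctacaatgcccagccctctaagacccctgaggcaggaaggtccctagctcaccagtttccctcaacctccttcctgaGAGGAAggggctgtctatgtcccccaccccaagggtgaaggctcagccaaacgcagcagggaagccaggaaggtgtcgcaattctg

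The motifs were the AP-1 motif TGANTCA, the NF-kB motif (GGG and CC with 5 bases between them, of which the third is T), the PU.1 core GAGGAA, the GC box GGGCGG and the cAMP response element TGACGTCA. Csf1 held 1 NF-kB match on the opposite strand, whose first base lies 154 bases before the start, and 2 GC boxes, 51 and 41 bases before it. Csf3r held 1 PU.1 core, 86 bases before its start. PU.1 is the transcription factor that sets the myeloid programme. The PU.1 core was also matched in the promoters of Csf2ra and Csf2rb2, so 3 of the 4 promoters searched held it, against 23.3% of 32851 RefSeq promoters. The GC box was matched in 2 of 4 (Csf1 and Csf2ra), against 32.7%, and the NF-kB motif in 1 of 4 (Csf1), against 15.9%. The cAMP response element was matched in 1 of 4 (Csf2ra), against 1.55%, and the AP-1 motif in 0 of 4, against 6.75%. These matches did not overlap each other. Matches describe the letters only, and promoters of Csf1r, Il34 and Csf2rb were not used here.

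Csf1 encodes macrophage colony-stimulating factor. It stood at 8.13, 8.19 and 8.69 in FAD DKO, 8.13, 8.77 and 8.06 in FAD, and 7.38, 7.09 and 6.67 in wild type (log2). The means were 8.34 ± 0.307 in FAD DKO, 8.32 ± 0.39 in FAD and 7.05 ± 0.362 in wild type (SD, n = 3 arrays each). Each array of both FAD genotypes lay above every wild type array, while FAD DKO and FAD overlapped widely. The order of the means was FAD DKO, FAD and wild type, and FAD DKO and FAD did not differ beyond their spread.

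FAD minus wild type was 1.27 for Csf1 (log2, SE 0.243, 95% interval 0.72 to 1.82), with an unadjusted p of 0.000551 and an adjusted p of 0.175 in limma. FAD DKO minus wild type was 1.29 (SE 0.243, 95% interval 0.74 to 1.84), with an unadjusted p of 0.000492 and an adjusted p of 0.103 in limma. Both comparisons use the same wild type arrays, so they are not independent of each other. The size stood out more than the p. Counting only genes that rose, a difference at least as high was seen in 20 of 22180 genes (0.0902%) for FAD minus wild type. It was seen in 22 genes (0.0992%) for FAD DKO minus wild type. By the two-sided limma p, which counts both directions, Csf1 ranked 70 and 105 of 22180 in the same order. Csf1 also varied more within groups than most genes, as 3.26% of genes had a larger SE. With 3 arrays against 3, an exact permutation test of a single gene could not give a two-sided p below 0.10, so none is given. With genes below the median signal left out, FAD DKO minus wild type passed for Csf1 (limma adjusted p = 0.0406), as it did with a trended and robust variance model (limma adjusted p = 0.0428). These were 2 of 8 alternative settings, and it passed in 0 of 9 fits without 1 array (limma adjusted p from 0.0838 to 0.299). FAD minus wild type passed in 0 of the 8 settings (limma adjusted p = 0.0644 and 0.0731 in these 2) and in 0 of the 9 fits.

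FAD DKO minus FAD was 0.02 for Csf1 (SE 0.243, limma adjusted p = 0.986). The 95% interval ran from -0.53 to 0.57, or 0.693-fold to 1.49-fold, so a difference of that size between these genotypes was not excluded by 3 arrays each. Leaving out 1 array moved this value between -0.16 (without FAD DKO replicate 3) and 0.25 (without FAD replicate 2). Leaving out 1 array kept FAD minus wild type between 1.04 and 1.44, and FAD DKO minus wild type between 1.10 and 1.46.

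**Figure D1:**
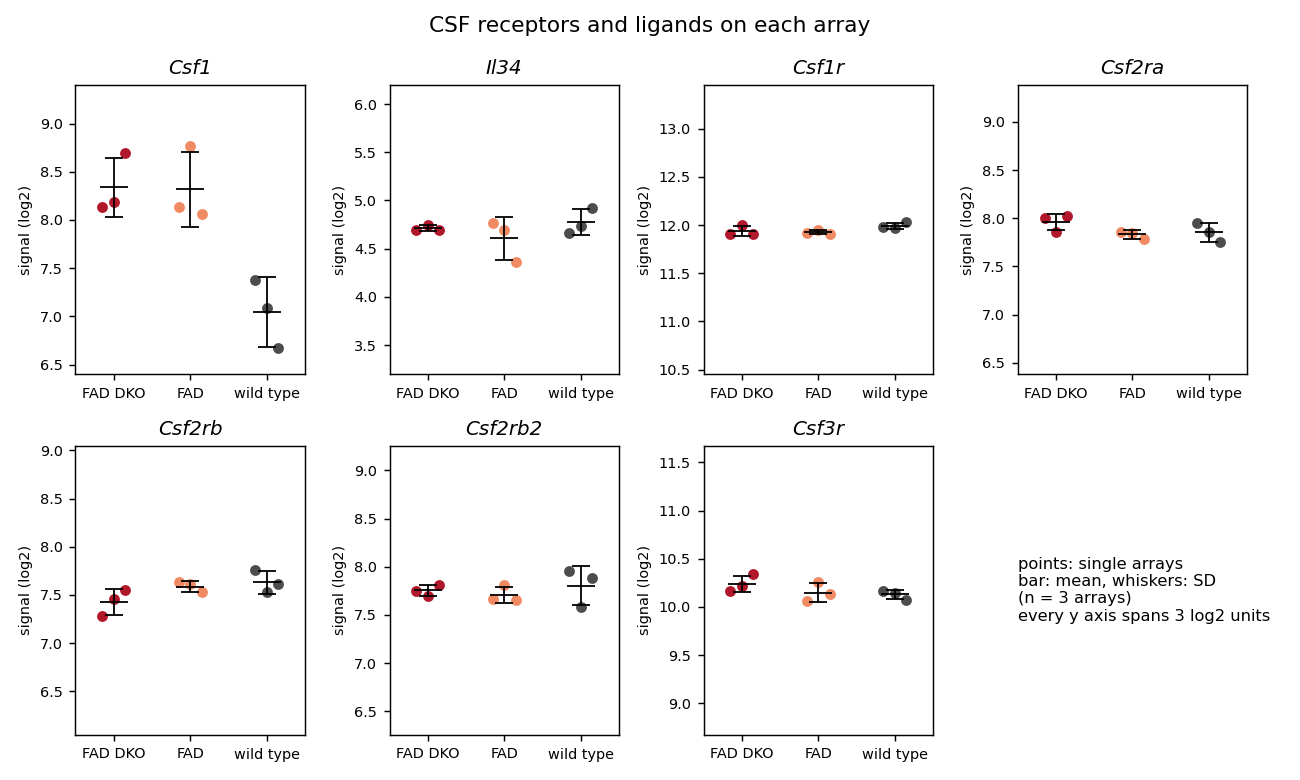
Signal (log2, y axis) of the 7 genes on each array by genotype (x axis). Points are arrays, bars are means and whiskers are SDs of 3 arrays; every y axis spans 3 log2 units. Csf1 lies between 8.06 and 8.77 in both FAD genotypes and between 6.67 and 7.38 in wild type, while the other genes stay nearly level.

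Il34, the other ligand of CSF1R, was measured below the median of all probe sets. It stood at 4.69, 4.75 and 4.69 in FAD DKO, 4.77, 4.69 and 4.36 in FAD, and 4.66, 4.74 and 4.92 in wild type. All groups overlapped. The differences were -0.17 for FAD minus wild type (SE 0.115, limma adjusted p = 0.733), 0.11 for FAD DKO minus FAD (limma adjusted p = 0.822) and -0.06 for FAD DKO minus wild type (limma adjusted p = 0.926). Neuronal markers were low on the same arrays, with 2 of 8 averaging above the median and Snap25, a synaptic protein, at 5.17 in FAD DKO, 5.20 in FAD and 5.13 in wild type. Detection calls were not used here, so a signal this low carries little information on a change.

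Csf1r stood at 11.91, 12 and 11.91 in FAD DKO, 11.92, 11.95 and 11.91 in FAD, and 11.98, 11.97 and 12.03 in wild type. The 3 FAD arrays all lay below the wild type arrays, but by a mean of 0.06. FAD minus wild type was -0.06 (SE 0.0606, limma adjusted p = 0.811), with a 95% interval from 0.87-fold to 1.05-fold. FAD DKO minus FAD was 0.01, with an interval from 0.919-fold to 1.11-fold (limma adjusted p = 0.959). The difference of FAD DKO from wild type was -0.05, with an interval from 0.879-fold to 1.06-fold (limma adjusted p = 0.88). Of all genes on the array, 97.7% had a larger SE than Csf1r. Saturation of bright probes was not analysed here. In sorted cells, fewer cells of a type and less RNA per cell cannot be told apart.

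The summed linear signal of the 11 microglia markers, Csf1r not among them, lay between 20457 and 21628 in FAD DKO, 22149 and 22478 in FAD, and 23381 and 24439 in wild type. These ranges did not overlap. Of the 11 markers, 11 lay below 0 in FAD minus wild type and 9 in FAD DKO minus wild type. Of all genes, 47.9% and 51.3% lay above 0. Without Cx3cr1, which carries the Cre in FAD DKO, the sums lay between 16838 and 17917 in FAD DKO, 17643 and 18006 in FAD, and 18904 and 19668 in wild type. The wild type arrays therefore had both the lowest Csf1 and the highest sum of microglia markers. The part of the marker level in the Csf1 difference was not tested.

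The GM-CSF receptor genes showed small differences. Csf2ra, the alpha chain that binds GM-CSF, stood at 8.00, 7.86 and 8.02 in FAD DKO, 7.86, 7.85 and 7.78 in FAD, and 7.95, 7.86 and 7.75 in wild type. The FAD DKO arrays reached higher but overlapped both other groups. FAD DKO minus FAD was 0.13 (SE 0.076, limma adjusted p = 0.684), and its 95% interval ran from 0.969-fold to 1.23-fold. FAD DKO minus wild type was 0.10 (limma adjusted p = 0.783) and FAD minus wild type was -0.02 (limma adjusted p = 0.96).

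Csf2rb, the signalling beta common chain, had the largest differences below 0 among the 7 genes in both FAD DKO comparisons. It stood at 7.28, 7.46 and 7.55 in FAD DKO, 7.63, 7.61 and 7.53 in FAD, and 7.76, 7.53 and 7.61 in wild type. The lowest signals, 7.28 and 7.46, were both from FAD DKO arrays, but the third FAD DKO array overlapped the other groups. In Csf2rb, FAD DKO minus wild type was -0.20 (SE 0.0912, unadjusted p = 0.0551, limma adjusted p = 0.622), and FAD DKO minus FAD was -0.16 (limma adjusted p = 0.678). FAD minus wild type was -0.04 (limma adjusted p = 0.927).

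Csf2rb2, the beta chain of the mouse IL-3 receptor, stood at 7.75, 7.70 and 7.81 in FAD DKO, 7.67, 7.81 and 7.66 in FAD, and 7.96, 7.58 and 7.88 in wild type. The wild type arrays alone spanned 0.381, which covered every array of both FAD genotypes. Its differences were -0.09 for FAD minus wild type, 0.05 for FAD DKO minus FAD and -0.05 for FAD DKO minus wild type (limma adjusted p = 0.839, 0.921 and 0.934). Csf2rb2 and Csf2rb are near-identical neighbours on chromosome 15 with 1 annotated gene between them, the microRNA gene Mir7676-1. Probes of one may bind transcript of the other, so the split between the pair is uncertain.

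Csf3r, the G-CSF receptor, stood at 10.17, 10.22 and 10.34 in FAD DKO, 10.06, 10.26 and 10.13 in FAD, and 10.17, 10.14 and 10.07 in wild type. All groups overlapped, and the highest array was from FAD DKO. For Csf3r, FAD DKO minus wild type was 0.12 (SE 0.0775, limma adjusted p = 0.763), FAD DKO minus FAD was 0.09 (limma adjusted p = 0.753) and FAD minus wild type was 0.02 (limma adjusted p = 0.965). The 95% interval for FAD DKO minus wild type ran from 0.96-fold to 1.22-fold.

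Neutrophils also express Csf3r, and markers of neutrophils were present on these arrays. All 14 listed markers were measured, of which 11 averaged above the median of all probe sets, led by S100a8, a calcium-binding protein of granulocytes. Their summed linear signal was 1221, 6096 and 3480 in FAD DKO, 3465, 3445 and 3378 in FAD, and 1863, 3275 and 3798 in wild type. This sum varied 4.99-fold between arrays, and Csf3r varied 1.21-fold. A linear sum gives most weight to bright markers. S100a8 averaged 10.20 in FAD DKO, 10.42 in FAD and 10.18 in wild type, and S100a9 averaged 9.57, 10.02 and 9.68 in the same order. Of the 14 markers, 13 lay above 0 in FAD minus wild type and 12 in FAD DKO minus wild type, against 47.9% and 51.3% of all genes. In limma 0 of the 14 passed. At an unadjusted p under 0.05 there was 1 of 14 in each comparison, near the 8.43% and 8.14% of all genes. Ly6g, a defining neutrophil surface marker, averaged 4.33 in FAD DKO, 4.53 in FAD and 4.42 in wild type, below the median of all probe sets. The part of neutrophils in the Csf3r signal was not tested.

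**Figure D2:**
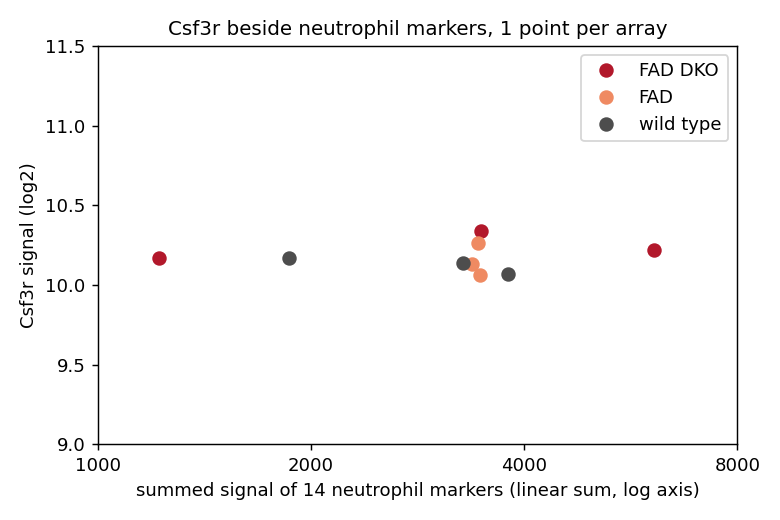
Csf3r signal (log2, y axis) against the summed linear signal of 14 neutrophil markers (log x axis), with 1 point per array coloured by genotype. The marker sum runs from 1221 to 6096, and Csf3r lies between 10.06 and 10.34.

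The 7 genes were also counted by looser rules. At an unadjusted p under 0.05, Csf1 alone was counted in FAD minus wild type (1 of 7, against 8.43% of all genes) and in FAD DKO minus wild type (1 of 7, against 8.14%). In FAD DKO minus FAD, 0 of 7 genes had an unadjusted p under 0.05, against 8.1%. The groups did not overlap for Csf1 and Csf1r in FAD minus wild type (2 of 7, against 11.8% of all genes). They did not overlap for Csf1 in FAD DKO minus wild type (1 of 7, against 11.9%), and all 7 genes overlapped in FAD DKO minus FAD (against 11.9%). The median difference of the 7 genes was -0.04, 0.05 and -0.05 for FAD against wild type, FAD DKO against FAD and FAD DKO against wild type in that order, beside -0.01, 0.01 and 0.0041 over all genes.

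**Figure D3:**
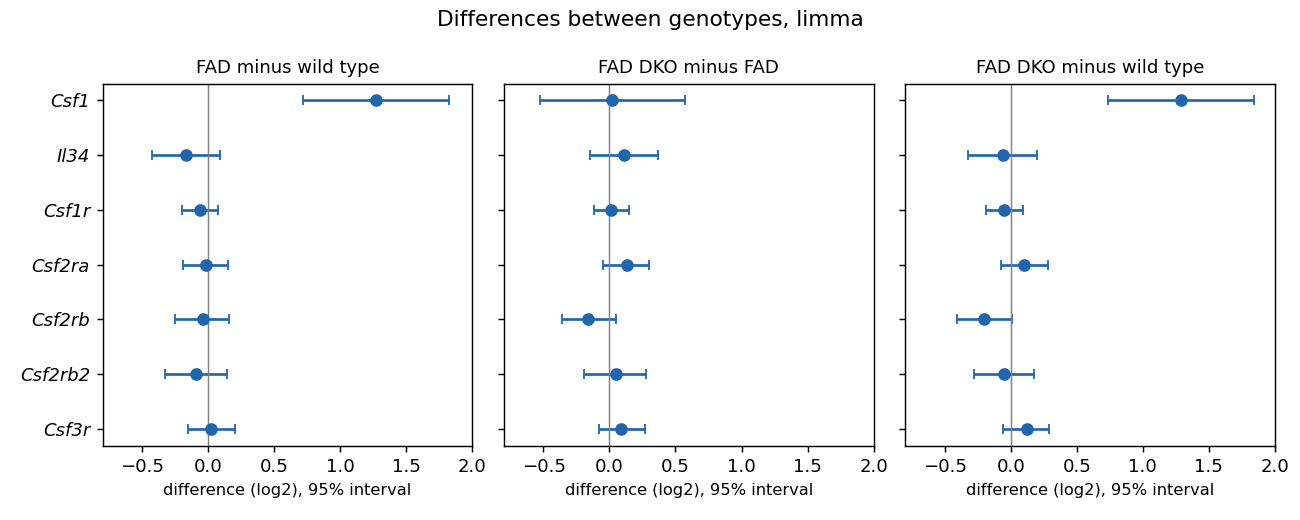
Difference between genotypes on the log2 scale (x axis) for the 7 genes (y axis) in 3 comparisons. Points are limma estimates and bars are unadjusted 95% intervals; the Csf1 bars lie above 0 in both comparisons with wild type (0.72 to 1.82 and 0.74 to 1.84), and all other bars cross 0.

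The other ligands of these receptors were at low signal. These genes and the alpha chains with them were singled out after their values were seen. Csf2, which encodes GM-CSF, lay between 4.02 and 4.56 over the 9 arrays. Csf3, which encodes G-CSF, lay between 4.11 and 4.86. Il3 lay between 3.78 and 4.26 and Il5 between 4.67 and 5.10, so all 4 averaged below the median of all probe sets. Of the alpha chains that pair with the beta common chain, Il3ra lay between 6.01 and 6.61 and averaged above the median. Il5ra lay between 3.58 and 3.88.

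Of 84 genes listed for the pathway around the receptors, 75 were measured. They comprised other ligands and receptors of the family, adaptors and kinases of CSF1R, the JAK and STAT arm of the beta common chain and CSF3R, survival and growth outputs, and transcription factors that control Csf1r. In FAD minus wild type, 1 rose and 0 fell at an adjusted p under 0.05 in limma, and 9 of 75 had an unadjusted p under 0.05, against 8.43% of all genes. In FAD DKO minus FAD, 0 passed and 6 of 75 had an unadjusted p under 0.05, a share close to the 8.1% of all genes. In FAD DKO minus wild type, 0 passed and 14 of 75 had an unadjusted p under 0.05, a larger share than the 8.14% of all genes. The 2 shares are not of like genes, as 64 of the 75 averaged at or above the median signal, against 11532 of 22180. The lists were also chosen with earlier results of these data known, so the larger share is a description only. The medians of the 75 genes were -0.01, 0.01 and -0.03 in the same order, beside -0.01, 0.01 and 0.0041 over all genes.

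The gene that rose in FAD was Bcl2, which blocks apoptosis. It stood at 6.97, 7.02 and 6.98 in FAD DKO, 7.55, 7.63 and 7.37 in FAD, and 6.09, 6.61 and 6.48 in wild type. The 3 genotypes did not overlap, with FAD highest and wild type lowest. FAD minus wild type was 1.13 (SE 0.128, limma adjusted p = 0.028), FAD DKO minus wild type was 0.60 (limma adjusted p = 0.159) and FAD DKO minus FAD was -0.53 (limma adjusted p = 0.309). The FAD call was kept without wild type replicate 1 or 2 (adjusted p = 0.022 and 0.0303 in limma) and lost without any one of the other 7 arrays. Those adjusted p-values were 0.0957 without wild type replicate 3, and 0.114, 0.156 and 0.0522 without FAD replicates 1, 2 and 3. They were 0.0798, 0.0715 and 0.067 without FAD DKO replicates 1, 2 and 3. With the replicate number as a block the adjusted p was 0.0646, and with the mean of the gene's probe sets the difference was 0.75 (limma adjusted p = 0.0832). By that mean of probe sets, FAD DKO minus wild type for Bcl2 was 0.31 (limma adjusted p = 0.502).

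Other ligands and receptors of the family included Kitl, the ligand of the related receptor kinase KIT. Kitl stood at 5.66, 5.48 and 4.51 in FAD DKO, 6.01, 5.78 and 6.01 in FAD, and 6.62, 6.19 and 6.45 in wild type. The FAD DKO arrays lay below all others, and the third of them lay far below the rest of its group. FAD DKO minus wild type was -1.20 (SE 0.263, limma adjusted p = 0.176) and FAD DKO minus FAD was -0.71 (limma adjusted p = 0.537). Sdc1, a syndecan that can bind IL-34, averaged 4.99 in FAD DKO, 4.83 in FAD and 4.72 in wild type, below the median signal. Flt3, the receptor kinase of dendritic cell progenitors, averaged 5.28 in FAD DKO, 5.59 in FAD and 5.42 in wild type (FAD DKO minus FAD, limma adjusted p = 0.643).

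Among adaptors and kinases of CSF1R, 26 of 30 were measured, and 0 passed the adjusted test in the 3 comparisons in limma. At an unadjusted p under 0.05 there were 4 of 26 for FAD against wild type, 1 for FAD DKO against FAD and 5 for FAD DKO against wild type, beside 8.43%, 8.1% and 8.14% of all genes. Fgr, a Src family kinase, averaged 6.35 in FAD DKO, 6.35 in FAD and 5.81 in wild type (FAD minus wild type 0.53, limma adjusted p = 0.535). Plcg2, the phospholipase downstream of CSF1R and TREM2, averaged 8.30 in FAD DKO, 8.48 in FAD and 8.52 in wild type. FAD DKO minus wild type for Plcg2 was -0.22 (SE 0.0665, limma adjusted p = 0.375). Genes of the PI3 kinase step differed by less than 0.3, with Pik3cg at -0.19 and Pik3cd at -0.25 in FAD minus wild type, and Pik3r1 at -0.19 and Pik3ap1 at -0.23 in FAD DKO minus wild type (limma adjusted p from 0.45 to 0.592). Ptpn6, the phosphatase SHP-1, was at 0.23 in FAD minus wild type (limma adjusted p = 0.592).

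Of the signalling genes of the beta common chain and CSF3R, 13 of 14 were measured and 0 passed. In FAD DKO minus wild type 12 of the 13 lay below 0, with a median of -0.08, where 51.3% of all genes lay above 0. Socs3, the feedback inhibitor that binds CSF3R, stood at 8.32, 7.74 and 7.82 in FAD DKO, 8.65, 8.69 and 8.60 in FAD, and 8.55, 8.47 and 8.73 in wild type. The FAD DKO arrays all lay below the others. FAD DKO minus FAD was -0.69 (SE 0.146, limma adjusted p = 0.252), and FAD DKO minus wild type was -0.62 (limma adjusted p = 0.205). Sh2b3, the adaptor LNK that restrains JAK2, averaged 7.46 in FAD DKO, 7.36 in FAD and 7.62 in wild type (FAD minus wild type, limma adjusted p = 0.502).

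The survival and growth list held 11 measured genes of 13. Besides Bcl2, Bcl2l1, which encodes the survival protein BCL-XL, averaged 7.11 in FAD DKO, 7.31 in FAD and 7.11 in wild type (FAD DKO minus FAD, limma adjusted p = 0.614). Myc, a driver of growth, averaged 8.95 in FAD DKO, 9.23 in FAD and 9.22 in wild type (FAD DKO minus FAD, limma adjusted p = 0.615). Foxo3, a transcription factor held inactive by growth factor signalling through AKT, averaged 6.17 in FAD DKO, 6.35 in FAD and 6.53 in wild type (FAD DKO minus wild type -0.35, limma adjusted p = 0.358).

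Transcription factors that control Csf1r or act beside it were measured for 12 of 13 genes, and 0 passed in the 3 comparisons. Maf, a macrophage transcription factor, stood at 10.92, 11.01 and 10.82 in FAD DKO, against 10.34, 10.49 and 10.80 in FAD. Its FAD DKO arrays lay just above the FAD arrays (0.37, SE 0.145, limma adjusted p = 0.554), and wild type, at 10.92, 10.84 and 10.47, overlapped both. Mitf, which macrophages and osteoclasts use downstream of CSF1, averaged 8.03 in FAD DKO, 8.06 in FAD and 7.76 in wild type (FAD minus wild type, limma adjusted p = 0.573). Cebpb averaged 7.21 in FAD DKO, 7.17 in FAD and 7.40 in wild type (FAD minus wild type, limma adjusted p = 0.554).

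**Figure D4:**
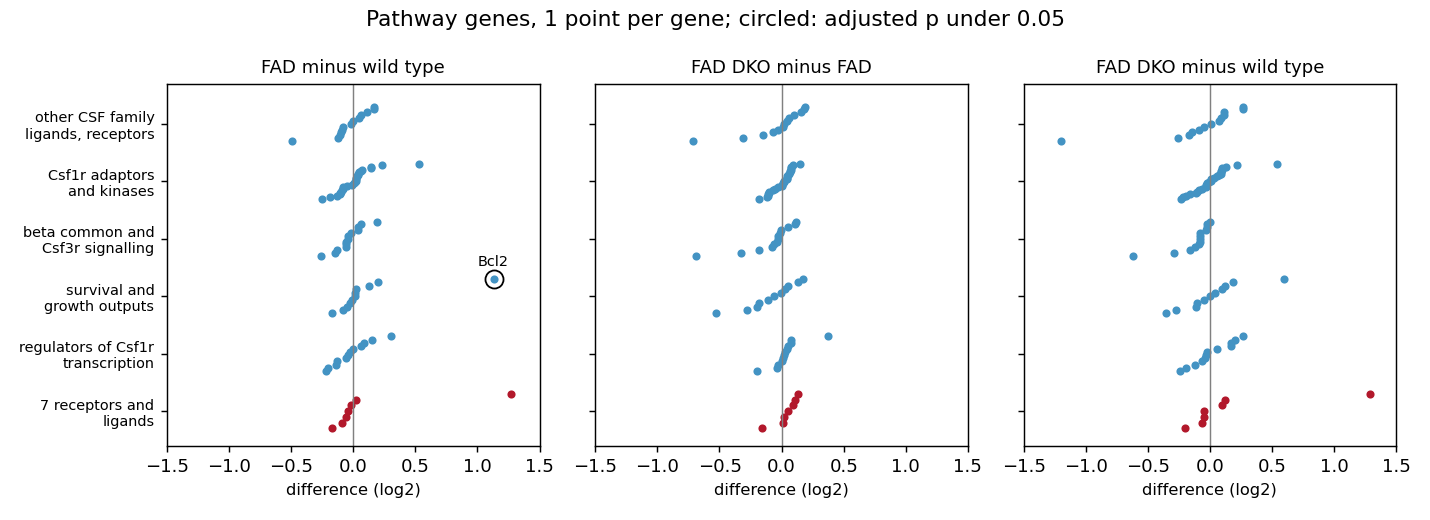
Difference between genotypes (log2, x axis) for 75 pathway genes in 5 lists and for the 7 CSF genes (y axis), with 1 point per gene and circles for an adjusted p under 0.05. Bcl2 at 1.13 in FAD minus wild type is the 1 circled gene, and Csf1 is the red point at 1.27 and 1.29 in the comparisons with wild type.

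The genes most like each CSF gene over the 9 arrays were looked up among 11526 genes that averaged at least the median signal. They are given as a description, since likeness over 9 arrays of 3 genotypes also holds what arrays share in sample quality and group. For Csf1 they were Lrmda and Leprotl1 (Pearson r = 0.989 each) and St8sia6, a sialyltransferase (r = 0.987). Lrmda averaged 6.46 in FAD DKO, 6.31 in FAD and 5.02 in wild type, and St8sia6 averaged 8.32, 8.16 and 7.32 in the same order. Leprotl1 differed far less, at 8.39, 8.39 and 8.19, so a high r does not mean a like size of difference. For Csf3r the most alike were Klhdc4 (r = 0.99), Lncpint (r = 0.973) and Polm (r = 0.94).

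Csf1r was most like Syne4 (r = 0.938), Thbs3 (r = 0.935) and Tex13c3 (r = 0.914), all over a range of 0.12 in Csf1r. The gene most like Csf2ra was S100pbp (r = 0.95), that most like Csf2rb was Sdccag8 (r = 0.95), and that most like Csf2rb2 was Prune2 (r = 0.962). Among the 7 genes themselves, r over the 9 arrays was 0.67 for Csf1 with Csf3r, -0.65 for Csf1 with Csf1r and 0.46 for the neighbours Csf2rb and Csf2rb2. It was 0.61 for Csf2ra with Csf3r, 0.60 for Csf1r with Il34 and -0.48 for Csf1r with Csf2ra. These r also hold the differences between groups, and Csf3r spanned only 0.28.

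Markers of other cells that make or answer to these ligands were read beside Csf1. The monocyte list had 9 of 10 markers measured, and its summed linear signal lay between 449 and 823 in FAD DKO, 706 and 781 in FAD, and 557 and 657 in wild type. FAD lay above wild type without overlap, and FAD DKO covered both. Of the 9 monocyte markers, 8 lay above 0 in FAD minus wild type, 1 in FAD DKO minus FAD and 4 in FAD DKO minus wild type. The shares over all genes were 47.9%, 53.2% and 51.3%. Astrocytes, which also make CSF1, had 8 of 8 markers measured, 2 of them above the median signal, and sums between 256 and 291 in FAD DKO, 262 and 286 in FAD, and 289 and 301 in wild type. Of these 8 markers, 7 lay below 0 in FAD minus wild type and 8 in FAD DKO minus wild type. In limma, 4 and 1 of the 8 had an unadjusted p under 0.05, against 8.43% and 8.14% of all genes. Endothelial and mural sums lay between 432 and 450 in FAD DKO, 415 and 429 in FAD, and 412 and 461 in wild type. Of this list, Flt1, a VEGF receptor, stood at 6.05, 5.85 and 5.99 in FAD DKO, 5.60, 5.76 and 5.30 in FAD, and 4.59, 4.72 and 4.79 in wild type. Like Csf1 it was lowest in wild type, but its FAD DKO arrays also lay above the FAD arrays. It was the 1 marker of any list that passed in limma, in FAD DKO minus wild type (1.26, SE 0.12, adjusted p = 0.00872), and FAD minus wild type was 0.85 (adjusted p = 0.0647). Cldn5, a tight junction protein that defines brain endothelium, averaged 4.31 in FAD DKO, 4.20 in FAD and 4.27 in wild type. Pecam1, of the same list, ran the other way from Flt1, with means of 6.18 in FAD DKO, 6.36 in FAD and 6.63 in wild type. Of the 8 endothelial and mural markers, 6 lay below 0 in FAD minus wild type and 3 in FAD DKO minus wild type. Of all genes, 47.9% and 51.3% lay above 0 in these comparisons. Sums of border macrophage markers lay between 300 and 403 in FAD DKO, 351 and 428 in FAD, and 326 and 386 in wild type. Oligodendrocyte lineage sums lay between 305 and 322 in FAD DKO, 304 and 317 in FAD, and 299 and 332 in wild type. Dendritic cell and lymphocyte sums lay between 408 and 444 in FAD DKO, 369 and 417 in FAD, and 399 and 445 in wild type. Neuron sums lay between 234 and 273 in FAD DKO, 245 and 248 in FAD, and 231 and 257 in wild type. The part of other cells in the Csf1 difference was not tested.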

How the data were processed

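Total RNA of sorted microglia was amplified and biotin-labelled for one-colour arrays, per the labels' protocols. The values deposited by the authors are log2 signals per probe set, made with RMA per the submitters' processing notes; the log2 scale was read from the values. The version of RMA is not given in the sources used. Precision is limited by the number of arrays, and array medians lay between 5.346 and 5.398.

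The table held 41345 probe sets, of which 23521 had 1 gene symbol, 1814 had several and 16010 were unlisted and unnamed here. Gene identifiers matched the RefSeq table of GRCm38.p6 for 23328 probe sets, with 0 symbols updated. The brightest probe set stood for a gene. Differences were tested in limma 3.58.1 (R 4.3.3; lmFit and eBayes, 1 fit of 9 arrays, 6 residual degrees of freedom), with Benjamini-Hochberg adjustment over 22180 genes and a threshold of 0.05. The fit was also run on simulated data with independent noise for each gene, and its outcome is not used here. Figures used matplotlib 3.10.9 in Python 3.11.15. The genes and lists were chosen with earlier results of these data known. Named genes were the 7 CSF genes, the targeted genes, pathway genes that were called or among the 8 smallest p of a comparison, and the 3 genes most like each CSF gene above the median; the text uses a part of these. Deviations of same-numbered arrays from their group means correlated between -0.11 and 0.122, with 1 of 9 pairs over 0.1, so the numbers were not taken as pairs.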

Additional observations from a re-analysis of the deposited data

How the results depend on the processing

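Alternatives were a low-signal filter, quantile normalization, a trended and robust variance model, the 2 groups compared alone, array weights, averaging the probe sets of a gene, testing every probe set, a block for the replicate number, and omitting each array in turn. The causes of the changes below were not tested, beyond the fewer genes or arrays that some alternatives use. For Csf1, FAD minus wild type stayed between 1.25 and 1.30 under the first 8 (adjusted p from 0.0644 to 0.371 in limma), and FAD DKO minus wild type between 1.29 and 1.32 (adjusted p from 0.0406 to 0.201). The count of called CSF genes was 0 in every setting of the 3 comparisons, except 1 (Csf1) in FAD DKO minus wild type with the low-signal filter or the trended and robust model. Called pathway genes in FAD minus wild type were 1, and 0 with 2 groups alone, the mean of probe sets, every probe set or the replicate block, and between 0 and 1 without 1 array. Over all genes FAD minus wild type gave 9 calls, against 33 with the low-signal filter, 43 trended and robust, 5 with 2 groups alone and 22 with array weights; FAD DKO minus FAD gave 5, against 11, 12 and 0 in the first 3 of these, 3 with quantile normalization and 2 with the replicate block; FAD DKO minus wild type gave 31, against 117, 124, 13 and 82 in these 4, 14 with every probe set and 11 with the replicate block. Without 1 array these counts lay between 8 and 12 (FAD minus wild type), 0 and 5 (FAD DKO minus FAD) and 2 and 28 (FAD DKO minus wild type). Values near 0 that were not called turned sign: FAD minus wild type for Csf2ra (0.02 without wild type replicate 1, 0.0036 without FAD replicate 3), Csf2rb (0.02 without wild type replicate 1; range -0.10 to 0.02 without 1 array) and Csf3r (-0.01 without wild type replicate 3, -0.03 without FAD replicate 2; range -0.03 to 0.07); FAD DKO minus FAD for Csf1r (-0.0003 with array weights, -0.02 without FAD DKO replicate 2), Csf1 (-0.07, -0.11 and -0.16 without FAD replicate 1, FAD replicate 3 or FAD DKO replicate 3; range -0.16 to 0.25) and Il34 (-0.02 without FAD replicate 3; range -0.02 to 0.19); FAD DKO minus wild type for Il34 (0.01 without wild type replicate 3; range -0.12 to 0.01) and Csf2rb2 (0.03 with array weights or without wild type replicate 1). The replicate block changed no call of the 7 CSF genes.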
